A study of Mus musculus with 3 samples.

Results

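CpGs that lie more than 10000 bp from every gene were compared between wild-type and Dnmt3a KO mouse embryonic stem (ES) cells by reduced-representation bisulfite sequencing (RRBS). A CpG was a member of the intergenic set if it was on an autosome, was covered by more than 20 reads in both libraries, and was more than 10000 bp from every gene of any type in the GENCODE vM1 annotation of mm9. This gave 15008 CpGs out of 327114 CpGs with more than 20 reads in both libraries, of which 324867 were autosomal. Of the other autosomal CpGs, 252497 were inside a gene and 57362 were outside genes but at most 10000 bp from one. RRBS cuts genomic DNA with the restriction enzyme MspI at CCGG, keeps short fragments and reads cytosines after bisulfite conversion, in which unmethylated cytosines are read as T. The wild-type line was derived from blastocysts of a mixed 129-C57Bl/6 background and was grown on feeder cells or gelatine by its label, and the study's methods give gelatine for its ES cells. The Dnmt3a KO line has the same background and was made with CRISPR/Cas9, which removed both isoforms of the enzyme, and it was grown on gelatine. Another line, Dnmt TKO, lacks Dnmt1, Dnmt3a and Dnmt3b, was grown on gelatine and has the strain label J1. All lines were kept in medium with serum and LIF, which supports self-renewal. Each genotype is represented by 1 line and 1 library, so a difference between genotypes cannot be told apart from a difference between lines, cultures or libraries, and the tests below compare the reads of 2 libraries.

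DNA methylation in mammals is placed on unmethylated CpGs by the de novo methyltransferases DNMT3A and DNMT3B and is copied to the new strand after replication by DNMT1. In most tissues the genome outside CpG islands is largely methylated, including DNA between genes and the transposons and satellite repeats in it, while CpG islands, which are CpG-rich stretches often found at gene starts and at other regulatory elements, mostly lack methylation. Dnmt TKO cells have no methyltransferase left and serve here as the background of the assay.

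RRBS covers DNA far from genes thinly. In mm9, 44.7% of the autosomal sequence and 7362024 of 20364700 autosomal CpGs (36.2%) lie more than 10000 bp from every gene, but only 4.62% of the autosomal CpGs measured in both libraries do. The median distance of the 15008 CpGs to the nearest gene was 30715 bp, 4967 of them were over 50000 bp and 2404 over 100000 bp away, and the nearest gene was protein-coding for 66.7%. In the first 500 bp beyond the limit, 294 CpGs went from a mean level of 27.8% in wild type to 20.5% in Dnmt3a KO, and in the last 500 bp before it 399 CpGs went from 34.5% to 23.9%. The files list 1035670 CpGs for wild type, 918295 for Dnmt3a KO and 558703 for Dnmt TKO, each with at least 10 reads. Intergenic CpGs had a median coverage of 69 reads (wild type) and 28 reads (Dnmt3a KO). The largest coverage was 6101 and 11338 reads, and 23 CpGs with over 1000 reads in Dnmt3a KO held 12.0% of all Dnmt3a KO reads of the set. Means below are therefore taken over CpGs, each counted once, and pooled values (methylated reads divided by all reads) are given where they turn the direction of a difference and for the set as a whole.

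Intergenic CpGs within 500 bp of each other were joined to 2995 loci, of which 989 held at least 5 measured CpGs. Sequences of 200 bases (mm9, plus strand, 5′ to 3′) are shown for loci that mark the range of outcomes, with the measured CpGs in capitals and levels given as means over the measured CpGs of the whole locus. The first pair had the largest loss of methylation among loci with at least 5 CpGs, chr2:74039108-74039307 and chr16:31575896-31576095.
Chromosome 2 locus, 82.2% in wild type and 26.1% in Dnmt3a KO: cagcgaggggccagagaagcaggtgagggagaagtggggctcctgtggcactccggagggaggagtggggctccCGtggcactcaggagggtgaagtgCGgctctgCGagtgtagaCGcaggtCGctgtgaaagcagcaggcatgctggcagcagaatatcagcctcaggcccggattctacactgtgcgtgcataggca
Chromosome 16 locus, 65.1% in wild type and 13.1% in Dnmt3a KO: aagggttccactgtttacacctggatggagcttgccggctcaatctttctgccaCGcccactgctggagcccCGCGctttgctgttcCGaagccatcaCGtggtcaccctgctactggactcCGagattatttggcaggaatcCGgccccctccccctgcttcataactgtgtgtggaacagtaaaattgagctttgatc
The second pair had the largest gain, chr9:35112827-35113026 and chr15:47371510-47371709.
Chromosome 9 locus, 25.6% in wild type and 72.7% in Dnmt3a KO: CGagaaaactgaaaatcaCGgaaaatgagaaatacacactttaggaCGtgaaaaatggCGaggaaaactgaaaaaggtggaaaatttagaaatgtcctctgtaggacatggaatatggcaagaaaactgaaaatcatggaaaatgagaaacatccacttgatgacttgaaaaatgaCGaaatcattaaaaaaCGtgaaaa
Chromosome 15 locus, 4% in wild type and 16.9% in Dnmt3a KO: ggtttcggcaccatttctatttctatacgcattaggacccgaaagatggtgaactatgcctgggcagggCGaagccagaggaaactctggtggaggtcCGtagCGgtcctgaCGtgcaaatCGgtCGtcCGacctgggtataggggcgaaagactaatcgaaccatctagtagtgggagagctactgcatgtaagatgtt
The next pair had at least 80% in wild type and the smallest difference, chr3:3426052-3426251 and chr1:79015701-79015900.
Chromosome 3 locus, 90.9% in both libraries: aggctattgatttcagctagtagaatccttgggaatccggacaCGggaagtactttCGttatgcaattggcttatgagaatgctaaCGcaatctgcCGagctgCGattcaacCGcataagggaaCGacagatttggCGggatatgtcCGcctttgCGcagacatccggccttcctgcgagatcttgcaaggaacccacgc
Chromosome 1 locus, 91.6% in wild type and 91.8% in Dnmt3a KO: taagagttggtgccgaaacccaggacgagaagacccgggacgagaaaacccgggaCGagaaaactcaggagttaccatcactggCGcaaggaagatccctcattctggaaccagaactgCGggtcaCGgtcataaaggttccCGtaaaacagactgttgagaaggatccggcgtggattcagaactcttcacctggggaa
The last is from a CpG-dense locus in which every CpG was under 20% in wild type, chr15:85501680-85501879.
Chromosome 15 CpG-dense locus, 1.66% in wild type and 0.201% in Dnmt3a KO: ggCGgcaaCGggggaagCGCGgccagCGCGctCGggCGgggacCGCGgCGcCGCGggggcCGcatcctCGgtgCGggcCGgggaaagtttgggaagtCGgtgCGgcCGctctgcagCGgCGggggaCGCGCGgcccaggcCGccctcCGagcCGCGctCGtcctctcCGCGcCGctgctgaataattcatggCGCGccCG

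Only part of the CpGs of the chromosome 9 and the CpG-dense chromosome 15 locus are in the windows. The 6 of 10 shown for chromosome 9 had 24.8% and 80.4%, and the 36 of 68 shown for chromosome 15 had 0.0597% and 0%, in the order of the labels. The unmethylated window is 78.5% G and C and holds 36 CpGs, and the windows with the largest loss are 63.0% and 55.0% G and C and hold 9 and 8 CpGs. The chromosome 9 window has the lowest share of the windows shown, 34.0% G and C, with 6 CpGs, and neither window of the pair with the largest gain holds a CCGG site. Both windows with the smallest difference, and both with the largest gain, include CpGs whose surroundings recur in the genome, as does the chromosome 16 window, which is quantified further on.

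Methylation of intergenic CpGs was lower in the Dnmt3a KO library. Over the 15008 CpGs the mean level went from 37.1% in wild type to 28.4% in Dnmt3a KO, which is -8.75 percentage points with a 95% interval of -8.89 to -8.60 that covers counting error only. The standard deviation of the difference over CpGs was 14.0 points, so single CpGs varied far more than the mean, in part through counting error. Levels were lower in Dnmt3a KO at 9009 CpGs, higher at 1767 and equal at 4232. Wild-type levels were most often under 10%, at 6771 CpGs, with 628 from 10 to 20% and 1319 from 20 to 50%. Another 2910 CpGs were from 50 to 80% and 3380 at 80% or more. In Dnmt3a KO, 7821 CpGs were under 10%, 1127 at 80 to 90% and 490 above. Pooled over reads, the difference was -3.70 points.

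**Figure D1:**
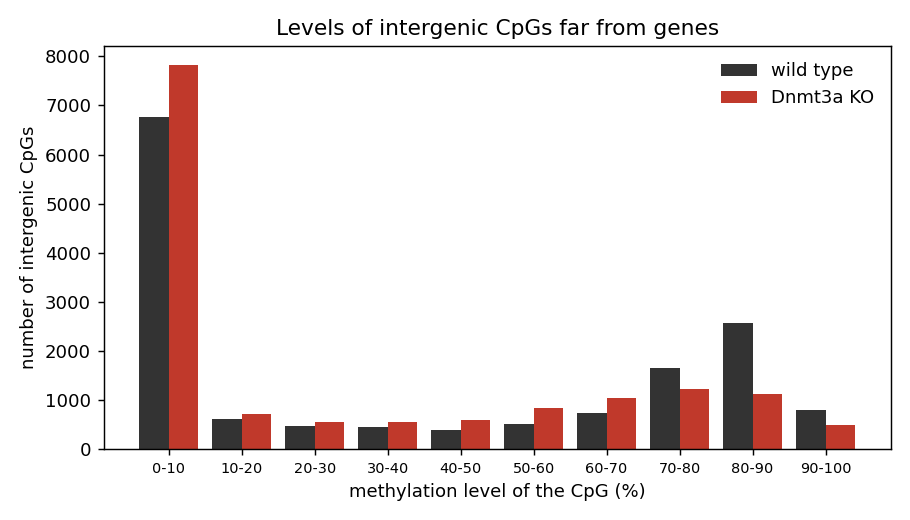
The x axis gives the methylation level of a CpG in percent and the y axis the number of intergenic CpGs, with wild type in dark bars and Dnmt3a KO in red bars. In wild type 2574 CpGs lie at 80 to 90% and 806 above, against 1127 and 490 in Dnmt3a KO, and the bars from 20 to 70% are higher in Dnmt3a KO.

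Split by the wild-type level, the mean loss over CpGs was small in absolute terms at unmethylated CpGs and largest at intermediate levels. The 7399 CpGs under 20% in wild type went from a mean of 2.27% to 1.08% in Dnmt3a KO, a difference of -1.19 points (-1.25 to -1.13). The 1319 CpGs from 20 to 50% went from 34.3% to 16.9%, a difference of -17.5 points (-17.9 to -17.0). Pooled over reads, the direction turned at this level, with 32.9% in wild type and 42.9% in the knockout, 9.95 points higher. The 2910 CpGs from 50 to 80% had 69.4% and 49.9%, a difference of -19.5 points (-19.9 to -19.1). The 3380 CpGs of at least 80% had 86.7% and 74.1%, a difference of -12.6 points (-12.9 to -12.3), and 82.3% of them were below their wild-type level. Selecting CpGs by their wild-type level lowers the difference by itself, because the same reads choose the CpGs and measure them. When random wild-type reads were set aside to choose the CpGs and the remaining ones measured them, the difference at 80% or more was -11.4 points. The lower levels were not checked in this way. With selection on the mean of both libraries the difference at 80% or more was -3.68 points, and with selection on Dnmt3a KO it turned to 0.635 points. Both of these selections use the Dnmt3a KO level and leave out CpGs that lost much methylation, so they cannot show the size of the loss.

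The measured difference varied between methylated CpGs. Of the 3380 CpGs of at least 80% in wild type, 1397 (41.3%) were still at 80% or more in Dnmt3a KO, 1748 were at 50 to 80%, 227 at 20 to 50% and 8 under 20%. The middle 50% of these CpGs spanned differences of -20.4 to -2.64 points. At their median of 26 Dnmt3a KO reads, counting error adds to this spread and moves CpGs across the limits, and its part was not tested. Of the 1319 CpGs from 20 to 50% in wild type, 892 (67.6%) were under 20% in Dnmt3a KO. Of the 7399 CpGs under 20%, 7354 stayed under 20%, 42 were at 20 to 50% 2 at 50 to 80% and 1 at 80% or more. Base composition also differed between the levels. In the 500 bp around the CpG, the median share of G and C was 64.6% for CpGs under 20% in wild type and 53.2% for CpGs of at least 80%, and the median ratio of observed to expected CpGs was 0.761 and 0.389.

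Fisher's exact test on the reads of each CpG, with Benjamini-Hochberg adjustment over all 327114 CpGs, called 983 intergenic CpGs lower in Dnmt3a KO by at least 20 points (6.55%), against 2.45% of all CpGs tested. These 983 CpGs lay in 577 loci and their mean went from 66.6% to 23.7%. Among CpGs of at least 50% in wild type, 781 of 6290 intergenic CpGs (12.4%) were called lower, against 17.3% of all CpGs tested at that level. At 80% or more the count was 270 of 3380 (7.99%), against 11.8%. Called higher were 15 intergenic CpGs in 4 loci, or 0.0999%, against 0.0532% of all CpGs tested. All 15 had at most 80% in wild type, where 11700 intergenic CpGs (0.128% called) stand against 0.056% of all CpGs tested. The number called depends on coverage, since a Dnmt3a KO median of 28 reads leaves a wide interval for a single CpG.

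At matched wild-type levels of at least 50%, methylated CpGs far from genes lost less than methylated CpGs nearer to them, as long as CpGs were selected on the wild-type level. With at least 80% in wild type, differences were -12.6 points far from genes, -15.4 points (-15.6 to -15.3; 12098 CpGs) inside genes and -16.1 points (-16.6 to -15.6; 1423 CpGs) outside genes but within 10000 bp. The loss far from genes was smaller than inside genes by 2.83 points, in 19 of 19 autosomes, and smaller than near genes by 3.48 points, in 15 of 19 autosomes. Against all other CpGs together it was smaller by 2.90 points, and by 2.64 with random wild-type reads set aside for the selection. This contrast became 0.881 with selection on the mean of both libraries and turned to -0.193 with selection on Dnmt3a KO. Both of these selections leave out CpGs that lost much methylation. Wild-type means at this level were 86.7%, 86.3% and 86.4%. From 50 to 80%, the differences were -19.5 points far from genes, -21.8 inside and -24.99 near genes. From 20 to 50% the difference far from genes, -17.5 points, was close to that inside genes, -17.2, and smaller than near genes, -21.0. Pooled reads turned the first pair to 9.95 and 17.5 points and left -19.4 near genes. Under 20% the order was the other way, with -1.19 points far from genes, -0.473 inside and -0.419 near genes, and here the wild-type means also differed, at 2.27%, 0.855% and 0.699%. CpGs of 1 library are not replicates, so no test was made of these differences.

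**Figure D2:**
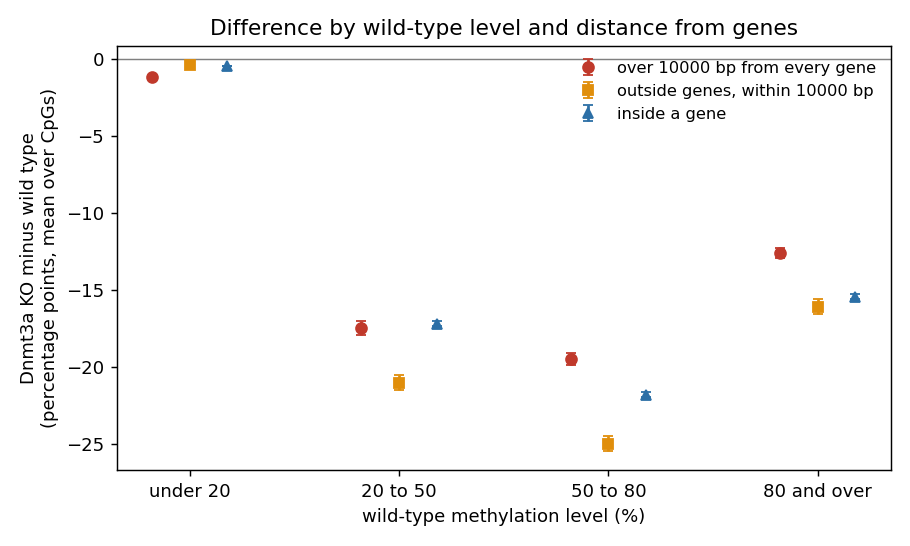
The y axis gives the mean over CpGs of the Dnmt3a KO minus the wild-type level in percentage points and the x axis the wild-type level in percent. Circles are CpGs over 10000 bp from every gene, squares those outside genes within 10000 bp, and triangles those inside a gene, with bars for the 95% interval of counting error. At 80% or more the circle, at -12.6 points, lies above the triangle at -15.4 and the square at -16.1.

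Much intergenic DNA is made of repeats, so the recurrence of each CpG's surroundings was recorded as the number of places in mm9, on either strand, that hold the same 31 bases centred on it. Copies that differ in any base, or that the mm9 sequence lacks, are not counted. CpGs with 1 copy can therefore still lie in repeats. More than 1 copy was found for 14.8% of intergenic CpGs, against 1.42% inside genes and 1.98% near genes. For a wild-type level of 80% or more, this share was 24.6% far from genes, 3.35% inside and 15.3% near genes. CpGs with more than 1 copy lost less. From 80% on, 2549 CpGs with 1 copy had a difference of -13.5 points (-13.9 to -13.1) and 831 CpGs with more copies had -9.90 points (-10.5 to -9.30), from the same wild-type mean of 86.7%. From 50 to 80% the values were -21.3 and -13.5 points, and from 20 to 50% they were -19.4 and -11.1 points, which pooled reads turned to 6.04 and 19.8. The smaller loss did not grow with the number of copies at 80% or more, where it was -9.66 points at 2 to 10 copies, -9.62 at 11 to 100 and -10.8 at over 100. Recurrence moved with the contrast to genes, which was 2.03 points against CpGs inside genes (17 of 19 autosomes) and 3.27 points against CpGs near genes (15 of 19) when only CpGs with 1 copy were kept. Near genes as well, CpGs with more copies lost less at 80% or more, -12.4 against -16.8 points. A read from a recurrent sequence can be assigned to the wrong copy, and the part of this in the values was not tested.

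Local CpG density, counted as the CpGs listed in the wild-type file within 200 bp, separated unmethylated from methylated intergenic CpGs. The mean wild-type level was 64.9% with 1 to 2 neighbours (406 CpGs), 66.3% with 3 to 5 (2885), 55.2% with 6 to 10 (4651), 21.9% with 11 to 20 (3391) and 2.17% with over 20 (3667). Among CpGs with over 20 neighbours 97.2% were under 20% in wild type, and among those with 3 to 5 neighbours 10.8%. The Dnmt3a KO levels had a similar order, at 52.1%, 51.9%, 42.4%, 15.4% and 1.38%. The differences were -12.9, -14.3, -12.9, -6.47 and -0.795 points, and the wild-type level sets the most that can be lost. The 8 CpGs without a neighbour went from 71.0% to 63.8%.

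Within a wild-type level, density made less difference. At 80% or more, the differences were -11.4 points with 1 to 2 neighbours, -12.5 with 3 to 5, -12.7 with 6 to 10 and -13.2 with 11 to 20. The 16 CpGs with over 20 neighbours had -4.36 points. Of these, 13 (81.25%) had more than 1 copy, against 11.3% with 1 to 2 neighbours and 44.1% with 11 to 20. CpGs with 1 copy and with more copies are given apart, and the difference between their orders was not tested. Among CpGs of at least 50% in wild type and with 1 copy, the difference was -14.7 points (-15.9 to -13.4) with 1 to 2 neighbours, -16.1 (-16.6 to -15.7) with 3 to 5, -17.7 (-18.1 to -17.2) with 6 to 10 and -20.6 (-21.6 to -19.6) with 11 to 20. The 26 such CpGs with over 20 neighbours had -14.2 points (-18.3 to -10.1). For CpGs with more copies it was -11.2, -12.02 and -11.8 points from 3 to 20 neighbours, -5.26 (-9.10 to -1.54; 30 CpGs) with 1 to 2 and -3.67 (-7.15 to -0.305; 23 CpGs) with over 20. Split at 10 neighbours, CpGs with 1 copy had -16.8 points (4306 CpGs) with up to 10 and -20.2 points (484 CpGs) with more, and CpGs with more copies had -11.6 and -11.3 points. The wild-type means of the CpGs with 1 copy were 79.0% and 75.4%. With a limit of 80% in place of 50%, where these means were 86.7% and 86.8%, the contrast was -13.4 against -15.03 points.

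**Figure D3:**
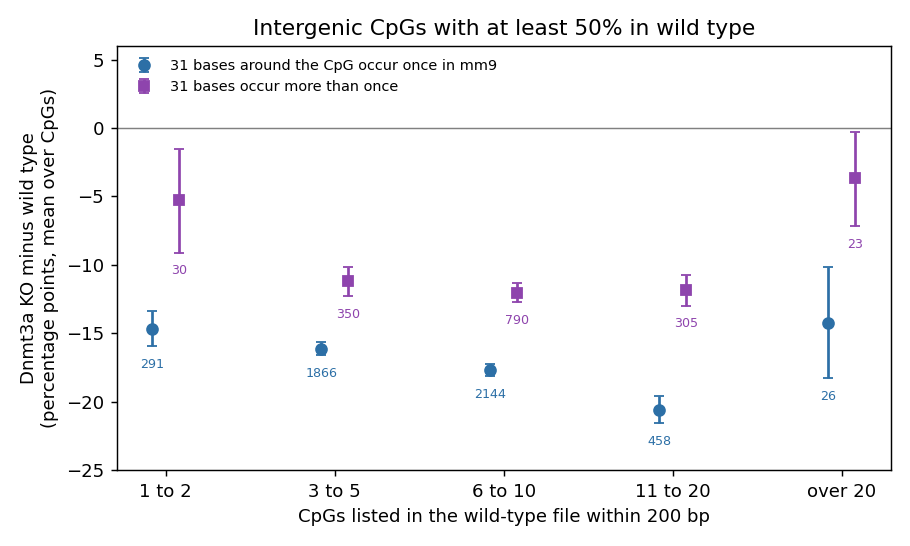
The x axis gives the number of CpGs listed in the wild-type file within 200 bp and the y axis the Dnmt3a KO minus wild-type level in percentage points, for intergenic CpGs of at least 50% in wild type. Circles are CpGs whose 31 bases occur once in mm9 and squares those whose bases recur, with bars for the 95% interval of counting error and the number of CpGs below each. The circles go from -14.7 points at 1 to 2 neighbours to -20.6 at 11 to 20, and the squares from 3 to 20 neighbours stay between -11.2 and -12.02, with -5.26 and -3.67 at either end.

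With increasing distance from genes, intergenic CpGs were more methylated and the methylated ones lost less. The mean wild-type level was 29.8% at 10000 to 20000 bp (4919 CpGs) and 59.2% at over 200000 bp (809 CpGs), with 22.0% and 49.3% in Dnmt3a KO. Over all levels the difference was -7.85 points in the nearest and -9.89 points in the farthest interval. At 20000 to 50000 bp, which holds the chromosome 9 locus of very high coverage, it was -8.86 points, and 2.35 points with pooled reads. From 50 to 80% in wild type, it was -21.3 points at 10000 to 20000 bp, -20.7 at 20000 to 50000 bp, -20.2 at 50000 to 100000 bp, -15.3 at 100000 to 200000 bp and -14.3 beyond. For CpGs at 80% or more, the first 3 intervals had -13.1, -12.9 and -13.0 points and the last pair -11.8 and -11.0. At 80% or more, the share of CpGs with more than 1 copy was 22.8%, 24.1%, 19.9%, 27.2% and 36.7% over the same intervals. The order over distance was also seen when only CpGs with 1 copy by exact match were kept. Among CpGs of at least 50% in wild type with 1 copy, the difference was -18.8, -18.4, -16.7, -13.8 and -12.9 points from the nearest to the farthest interval, with wild-type means of 77.9% to 79.5%. Those with more copies had -9.92, -10.9, -14.3, -11.9 and -11.6 points, in no order.

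All autosomes had lower mean levels in Dnmt3a KO. The number of intergenic CpGs went from 338 on chromosome 19 to 2090 on chromosome 1. Over all levels, the mean difference lay between -6.03 points on chromosome 12 and -11.9 points on chromosome 10, which also differed in wild-type mean, 24.7% and 51.2%. At 80% or more in wild type, it lay between -10.7 points on chromosome 1 (-11.4 to -9.94; 591 CpGs) and on chromosome 14 (-12.7 to -8.76; 83 CpGs) and -15.4 points on chromosome 2 (-16.8 to -13.9; 172 CpGs). The intervals of neighbouring chromosomes in this order overlap, while those of chromosomes 1 and 2, the ends of the ranking, do not. They cover counting error only and make no allowance for the ranking, so they do not test a difference between chromosomes. Inside genes chromosome 1 had -13.0 points at this level and chromosome 2 -17.1 points. Pooled reads gave another picture for chromosomes 9 and 12, where the difference was 23.1 and 4.76 points in place of the means of -7.57 and -6.03, and these chromosomes hold the loci of very high coverage described further on. Coverage was not even over chromosomes. Of intergenic CpGs with over 20 reads in wild type, 31.4% on chromosome 1 and 30.98% on chromosome 8 also had over 20 reads in Dnmt3a KO, against 22.6% on the others together. In Dnmt TKO 36.5% and 37.2% of them were listed, against 24.8%, and the median wild-type coverage was 40 and 38 reads, against 35. The number of copies of these chromosomes in the cells was not tested.

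**Figure D4:**
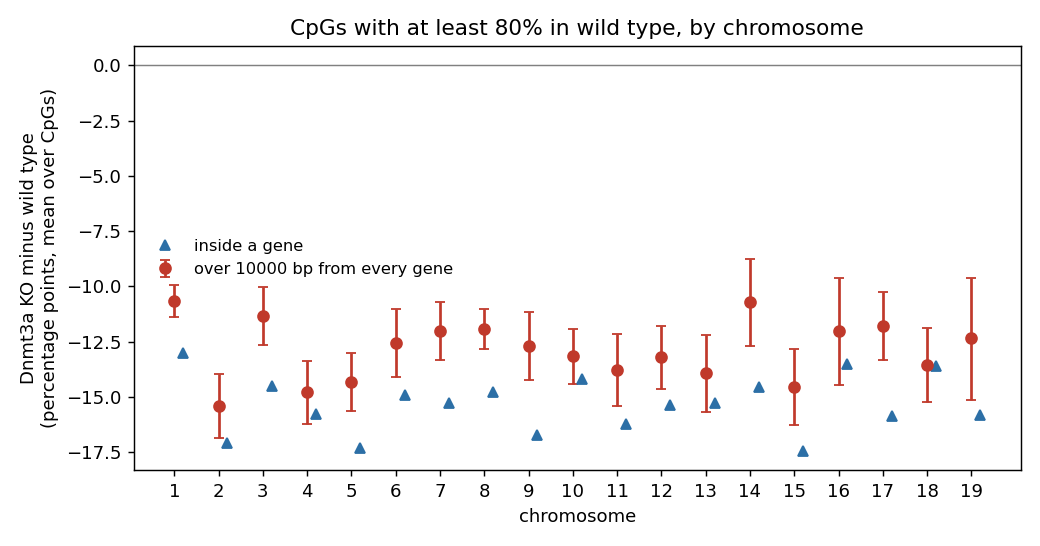
The x axis gives the autosome and the y axis the mean Dnmt3a KO minus wild-type level in percentage points over CpGs of at least 80% in wild type. Circles with 95% intervals of counting error are CpGs over 10000 bp from every gene and triangles CpGs inside genes. The circles lie between -15.4 and -10.7 points, each above the triangle of its chromosome, on chromosome 18 by 0.0702 points only.

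The background of the assay at these CpGs was low. In Dnmt TKO, 8702 intergenic CpGs had more than 10 reads, and 341 of their 267487 reads were methylated, or 0.127% (95% Wilson interval 0.115 to 0.142%, counting error only), with 97.5% of the CpGs free of methylated reads. Means over the same CpGs were 36.0% (wild type), 27.4% (Dnmt3a KO) and 0.151% (Dnmt TKO). Split by wild-type level, the share of methylated Dnmt TKO reads was 0.0588% under 20%, 0.119% from 20 to 50%, 0.239% from 50 to 80% and 0.292% at 80% or more. These shares rise with the wild-type level but stay under the level of Dnmt3a KO in each class, including 1.04% over the same CpGs under 20% in wild type.

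Single loci showed how far intergenic regions can part. The locus with the largest loss, chr2:74039182-74039232, is 50291 bp from Gm13667, a non-coding transcript, and all its CpGs have 1 copy. Its 5 CpGs lay between 73.3% and 86.7% in wild type, with a median of 90 reads, and between 8.70% and 33.3% in Dnmt3a KO, with a median of 23 reads, and the ranges do not overlap. The mean difference was -56.1 points, and 4 of 5 CpGs were called lower. At chr16:31575950-31576040, 87489 bp from Dlg1, which encodes a scaffold protein of cell junctions, 7 CpGs had 50% to 72.6% in wild type and 4% to 25.9% in Dnmt3a KO. All 7 were called lower, 3 of them had 3 to 16 copies in the genome, and no read of 88 was methylated in Dnmt TKO. At chr2:169041218-169041328, 19163 bp from the non-coding 9430093N23Rik, 6 CpGs had 52.5% to 76.7% in wild type and 2.33% to 14.3% in Dnmt3a KO, and all were called lower. These loci were ranked by the difference itself, so their values describe them and do not test it.

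Loss was the common outcome at methylated loci. Among 437 loci with at least 5 CpGs and a wild-type mean of at least 50%, the mean was lower in Dnmt3a KO at 411 and higher at 26, and every CpG was lower at 204. At the 198 loci with a wild-type mean of at least 80%, the median difference was -9.53 points, 181 were lower, 17 higher, and 35 had lost at least 20 points. These loci differed with recurrence. The 78 in which every CpG had 1 copy had a median of -14.5 points and 26 had lost at least 20 points, and the 120 with some recurrent CpG had a median of -7.56 points and 9 had lost at least 20 points.

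Among the loci with the smallest change, chr3:3426095-3426208 held 10 CpGs, 81822 bp from Hnf4g, which encodes a nuclear receptor. Its CpGs had 85.5% to 93.9% in wild type and 78.8% to 100% in Dnmt3a KO, with up to 67 copies. Dnmt TKO reads there were unmethylated, 0 of 159, which does not exclude a low share. At chr1:79015756-79015844, 51102 bp from Gm5830, 5 CpGs had 86.0% to 94.1% and 82.6% to 100%, with up to 257 copies. At chr10:96573494-96573535, 255190 bp from a predicted microRNA gene, 5 CpGs had 84.4% to 93.3% and 83.3% to 96.2%, with up to 11 copies. The ranges of the 2 libraries overlap at each of these loci, which were ranked by their small difference, so this does not test it. All 3 include recurrent sequence, as do 120 of the 198 loci at this level.

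Gain was rare. Of the 15 CpGs called higher, 10 had more than 1 copy, 9 lay in 1 locus on chromosome 9, and the mean of the 15 went from 22.3% to 70.9%. The chromosome 9 locus, chr9:35112827-35113168, 23407 bp from Gm5614, held 10 CpGs with 17.8% to 32.2% in wild type, all exceeded in Dnmt3a KO, with 41.7% to 86.7% and no overlap, and the last CpG, with 32.2% and 41.7%, was not called. Its coverage was unusual. The CpG with most reads had 6101 reads (wild type), 11338 (Dnmt3a KO) and 28180 (Dnmt TKO), the reverse of the order of the libraries' totals, and its methylated reads in Dnmt TKO were 43. By exact matches this CpG had 1 copy, and other CpGs of the locus had up to 69. Copies that differ in any base, or that the mm9 sequence lacks, are not counted. Whether the reads of this locus come from other copies in the genome was not tested. On chromosome 12, 3 CpGs at 3109911 to 3110026 went from a mean of 21.8% to 77.2%, with 15 to 45 copies and median coverages of 1811 and 1937 reads. The other CpGs called higher were 2 on chromosome 7, with 18.4% and 54.3% and 16 to 1309 copies, and 1 on chromosome 4, with 8.64% and 37.0% and 530 copies.

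The next largest gains rested on few reads or on part of a locus. At chr15:47371579-47371640, 40543 bp from Csmd3, 7 CpGs had 0% to 8% in wild type and 14.3% to 22.7% in Dnmt3a KO. The ranges do not overlap, but the median coverage was 25 and 21 reads and no CpG was called. Each CpG had 7 to 12 exact copies in mm9, which leaves out copies that differ or that mm9 lacks. At chr7:11057304-11057404, 15174 bp from Zik1, a zinc finger gene, the mean of 9 CpGs went from 23.6% to 35.2%, but 3 of the 9 were lower and the ranges of 14.1% to 43.6% and 10.7% to 58.6% overlap. These loci and that on chromosome 9 were ranked by the difference itself, so their values describe them and do not test it.

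**Figure D5:**
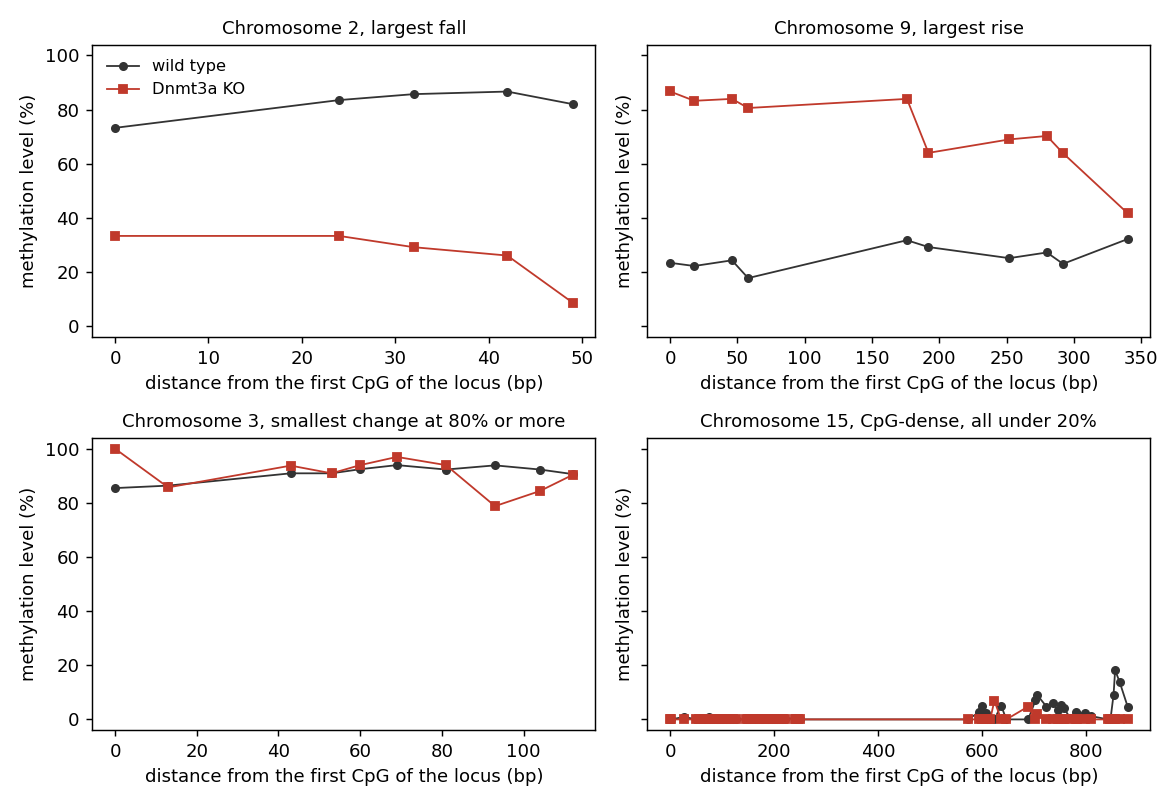
Each panel plots the methylation level in percent of every measured CpG of a locus against its distance from the first one in bp, with dark circles for wild type and red squares for Dnmt3a KO. The chromosome 2 locus is lower at each CpG in Dnmt3a KO, the chromosome 9 locus higher at each, the chromosome 3 locus stays at 78.8% or more in both, and the CpG-dense chromosome 15 locus is at 18.2% or less in both.

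Unmethylated intergenic loci were CpG-dense and stayed unmethylated. In 376 loci with at least 5 CpGs, every CpG was under 20% in wild type, and these held 6004 CpGs, with a median of 63.3% G and C and a median distance of 23573 bp from genes. The median difference was -0.320 points, 9 loci had a Dnmt3a KO mean of at least 5%, and in 3 any CpG reached 20%. At chr15:85501632-85502512, 34521 bp from the microRNA gene Mirlet7c-2, 68 CpGs had means of 1.66% and 0.201%, with single CpGs up to 18.2% (wild type) and 6.90% (Dnmt3a KO). At chr1:78213264-78214279, 19555 bp from Pax3, a transcription factor gene of neural crest and muscle development, 67 CpGs had means of 0.164% and 0.143%. The 3 loci in which a CpG reached 20% in Dnmt3a KO were the chromosome 15 locus near Csmd3, chr8:15519823-15519940 with means of 4.02% and 15.2% over 10 CpGs, and chr4:109859563-109859681 with means of 8.33% and 12.4% over 8 CpGs. All 3 included recurrent CpGs, with up to 12, 13 and 705 exact copies in mm9.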

How the data were processed

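Genomic DNA of ES cells (wild type, Dnmt3a KO, Dnmt TKO; 1 library each) was cut with MspI, size-selected (inserts of 150-250 and 250-350 bp), bisulfite-converted and amplified with 10 PCR cycles. The authors trimmed reads with Trim Galore, aligned them to mm9 with Bowtie through QuasR, kept unique hits and removed CpGs over SNPs. Versions are not given in the sources used here, nor whether the size ranges were pooled. The deposited files hold, for each CpG, counts of all reads and of methylated reads, and the authors' methylation score, a fraction of methylated reads, which was recomputed from the counts. CpGs over 20 reads in both libraries were used. Distances were taken to the bodies of 34653 autosomal genes of GENCODE vM1, and all 324867 autosomal positions were CG in mm9. Members, groupings and loci were chosen with earlier results of these data known.

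The mean difference over CpGs is given with a 95% Newcombe interval of pooled reads centred on it, which covers counting error only and takes reads as independent, although PCR copies and CpGs sharing a read are not. CpGs were called with a two-sided Fisher's exact test per CpG, Benjamini-Hochberg adjusted over 327114 CpGs, at an adjusted p under 0.05 and at least 20 percentage points. Recurrence was the number of exact matches of 31 bases in mm9 on both strands. G and C content was taken over 500 bp. Loci were members at most 500 bp apart. Loci named were, of those with at least 5 members, the 3 with the largest loss, the 3 with the largest gain, the 3 with the smallest difference at a wild-type mean of at least 80%, and the 3 with the most CpGs all under 20%. Of the last 3, 1 is not reported here. CpGs called higher and loci with a CpG of at least 20% in Dnmt3a KO were named after their values were seen. Tools were scipy 1.17.1, numpy 2.4.6, matplotlib 3.10.9, numba 0.67.0 and pandas 2.3.3 in Python 3.11.15, and the scripts were tested on simulated data.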

Additional observations from a re-analysis of the deposited data

How the results depend on the processing

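The mean difference over intergenic CpGs, -8.75 points, stayed negative under each alternative run. It was -10.0 with over 10 reads, -9.52 beyond 50000 bp, -7.91 with protein-coding genes only, -3.70 with pooled reads and -12.7 as a mean over loci. With over 50 reads it was -2.49, where 1186 CpGs remained, with a wild-type mean of 9.51% in place of 37.1%. At 80% or more in wild type, -12.6 points became -7.60 with over 50 reads, where 43 CpGs remained. It was -12.1 beyond 50000 bp, -13.1 with protein-coding genes only, -13.5 with CpGs of 1 copy and -13.8 over loci. With random wild-type reads set aside for the selection it was -11.4. The difference became -3.68 with selection on the mean of both libraries and turned to 0.635 with selection on Dnmt3a KO. Both of these selections leave out CpGs that lost much methylation. Leaving out each chromosome gave -8.93 to -8.59 and -13.0 to -12.5 points.

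The smaller loss far from genes against all other CpGs, 2.90 points, became 9.69 with over 50 reads, where 43 intergenic CpGs remained. It was 3.37 beyond 50000 bp, 2.39 with protein-coding genes only and 2.15 with CpGs of 1 copy. With random wild-type reads set aside for the selection it was 2.64. It became 0.881 with selection on the mean of both libraries and turned to -0.193 with selection on Dnmt3a KO. Both of these selections leave out CpGs that lost much methylation. Calls of lower CpGs, 983, became 1506 with over 10 reads, 41 with over 50 reads, 321 beyond 50000 bp, 539 at an adjusted p under 0.01 and 75 with 20 reads drawn per library. Calls of higher CpGs, 15, became 3 without the top 1 percent of coverage, 0 beyond 50000 bp, 5 with CpGs of 1 copy and 3 with 20 reads drawn. For the contrast of CpG density at 50% or more, -0.938 points between over 10 and up to 10 neighbours became -3.45 with CpGs of 1 copy, -1.10 with neighbours listed in Dnmt3a KO and -1.51 with those of the mm9 sequence. The causes were not tested.

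The alternatives on copies and on the source of neighbours were chosen after seeing the data. The alternative without soft-masked repeats was not run, since the genome used is not soft-masked. No paired analysis was possible because each genotype has 1 library, and there was no replicate to leave out. The Dnmt3a KO median of 28 reads limits calls at single CpGs.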
